A study of Homo sapiens with 29 samples.

Results

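The E2F and retinoblastoma family is described here by 10 genes of the 35544 into which the deposited transcripts were summed: the E2F factors E2F1, E2F2, E2F3, E2F4, E2F7 and E2F8, their dimer partner TFDP1, and the pocket proteins RB1, RBL1 and RBL2. They were chosen by name as members of one pathway, and the transcript level of each was followed over all 29 libraries of the series. RNA came from PC9, a lung adenocarcinoma line with mutant EGFR, in 10 forms: parental cells (PAR), an AXL knockout (KO), and knockout cells transduced with AXL that was wild type (WT), kinase dead (KD) or changed from tyrosine to phenylalanine at 1 site (Y634F, Y643F, Y698F, Y726F, Y750F or Y821F). Each line was left untreated, or was kept for 24 h with erlotinib, an inhibitor of the EGFR kinase (E), or with erlotinib and AF154, an antibody that activates the AXL receptor tyrosine kinase (EA). The culture time of the untreated cells is not stated in the sources used here, so a difference in it cannot be told apart from treatment. There were 10 untreated libraries, 10 with E and 9 with EA, and 1 library for each line and treatment, and KO with EA was not analysed here. Per the study's methods, a guide against the kinase domain of AXL made the knockout. The AXL constructs were delivered by lentivirus, and the transduced cells were sorted as GFP-positive populations. By the study's supplement, only a minority of the transduced cells expressed AXL, so most of them remained without the receptor. All lines share the EGFR-mutant PC9 background, and the 9 lines other than PAR descend from the knockout. Since no line was repeated, the variation of a treatment change between lines is the error used here, although their receptors differ.

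E2F factors bind DNA as dimers with a DP protein such as TFDP1 and control genes for DNA replication and entry into S phase. The pocket proteins hold E2Fs inactive until cyclin-dependent kinases phosphorylate them: RB1 mainly binds the activators E2F1, E2F2 and E2F3, whereas RBL1 (p107) and RBL2 (p130) mainly bind E2F4 and, with the MuvB proteins, form the DREAM complex that silences cell cycle genes in resting cells. E2F7 and E2F8 are repressors that act without a DP partner and are themselves made late in G1 and in S phase. In EGFR-mutant lung cancer cells, EGFR signaling feeds into this pathway through the D-type cyclins.

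Several of these genes are classical E2F targets themselves, and the bases just before their start sites are shown to let the letters be read beside the levels. The sequences are from RefSeq promoter windows on GRCh38.p14, and each run holds the 120 bases that precede the annotated start, written 5′ to 3′ on the strand of the gene. Capitals mark matches to the E2F consensus, spelled as TTTGGCGC, TTTCGCGC, TTTCCCGC or TTTGCCGC on either strand. E2F1 (chr20:33686386-33686505, minus strand), E2F2 (chr1:23531234-23531353, minus strand), RBL1 (chr20:37095998-37096117, minus strand) and the start of the long first-exon form of E2F3 (chr6:20401759-20401878, plus strand) carry matches. The internal start of E2F3 (chr6:20403494-20403613, plus strand) is shown as the other annotated start of that gene. Whether a match bears on the response to erlotinib was not tested.
E2F1: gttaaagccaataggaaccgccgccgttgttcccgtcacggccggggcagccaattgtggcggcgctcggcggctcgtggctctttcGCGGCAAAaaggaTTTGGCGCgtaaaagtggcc
E2F2: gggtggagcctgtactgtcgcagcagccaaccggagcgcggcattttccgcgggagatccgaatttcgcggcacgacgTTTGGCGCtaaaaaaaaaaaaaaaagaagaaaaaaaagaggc
RBL1: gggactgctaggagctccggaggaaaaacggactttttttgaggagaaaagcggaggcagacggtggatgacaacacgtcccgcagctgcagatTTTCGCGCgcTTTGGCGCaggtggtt
E2F3, first start: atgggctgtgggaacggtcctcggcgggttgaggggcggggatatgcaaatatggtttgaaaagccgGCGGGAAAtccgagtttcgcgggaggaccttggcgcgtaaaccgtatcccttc
E2F3, internal start: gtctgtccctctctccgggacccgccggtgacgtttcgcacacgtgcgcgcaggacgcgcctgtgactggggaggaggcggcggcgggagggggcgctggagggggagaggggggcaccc
Windows of 250 bases before to 50 bases after a start were found for 9 of the 10 genes, in 11 windows, and E2F8 had none. Matches lay in 5 genes: E2F1 with 2, RBL1 with 2, and E2F2, E2F3 at its first start and TFDP1 with 1 each. The 7 matches did not overlap one another. Of all 35116 RefSeq windows of this length, 3.31% held at least 1 match and 0.145% held at least 2. No match was found in the windows of E2F4, E2F7 and RBL2 or at the internal start of E2F3. The 1 window for RB1 lay inside the gene, 172724 bases from its annotated start, and says nothing of the promoter there. A match is a description of letters and not a measured binding site.

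The authors deposited transcript abundances as TPM, a unit that accounts for transcript length and gives all libraries the same total, and read numbers cannot be had from it. Matched transcripts held 97.01 to 97.35% of the TPM of a library. The AXL transcript was still present in KO (79.3 to 92.4 TPM) but was higher in all other lines (217 to 852 TPM). Epithelial markers were high in every library (EPCAM at least 286 TPM, KRT8 at least 1249 TPM), whereas the lung lineage factor NKX2-1 reached at most 0.354 TPM, CD3E was listed at 0 and PTPRC reached at most 1.003 TPM. CD68 (at least 27.8 TPM) and COL1A1 (at least 15.3 TPM), also used as macrophage and fibroblast markers, were present throughout. Mitochondrially encoded transcripts took a median of 12.8% of TPM untreated, 13.2% with E and 14.4% with EA, with the highest values in PAR with E (17.4%) and Y821F with EA (17.4%). The E2F1 values without each of these lines are given with the comparison of EA and E.

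Before treatment the levels of the members spanned a wide range. TFDP1 was highest, with a mean of 151 ± 7.19 TPM (SD, n = 10 lines), and was followed by E2F4 with 82.7 ± 5.10 TPM, RBL2 with 39.7 ± 2.45 TPM and E2F1 with 35.4 ± 2.80 TPM. E2F8 (18.6 ± 1.56 TPM), E2F3 (17.9 ± 1.20 TPM), E2F7 (16.7 ± 1.98 TPM) and RB1 (14.8 ± 3.30 TPM) came next, then RBL1 with 9.09 ± 0.596 TPM and E2F2 with 2.15 ± 0.440 TPM. E2F8 exceeded E2F3 in 7 of 10 lines, E2F3 exceeded E2F7 in 7 and E2F7 exceeded RB1 in 8, so these 4 were not ordered beyond their spread. The ranges of RBL2 and E2F1 overlapped over lines, but RBL2 was the higher one within each of the 10. All other neighbours had separate ranges. Testing required an average level of 1 TPM or more across all libraries, which 9 of the 10 members had. E2F2 did not, and its changes are given from the fit without this filter.

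**Figure D1:**
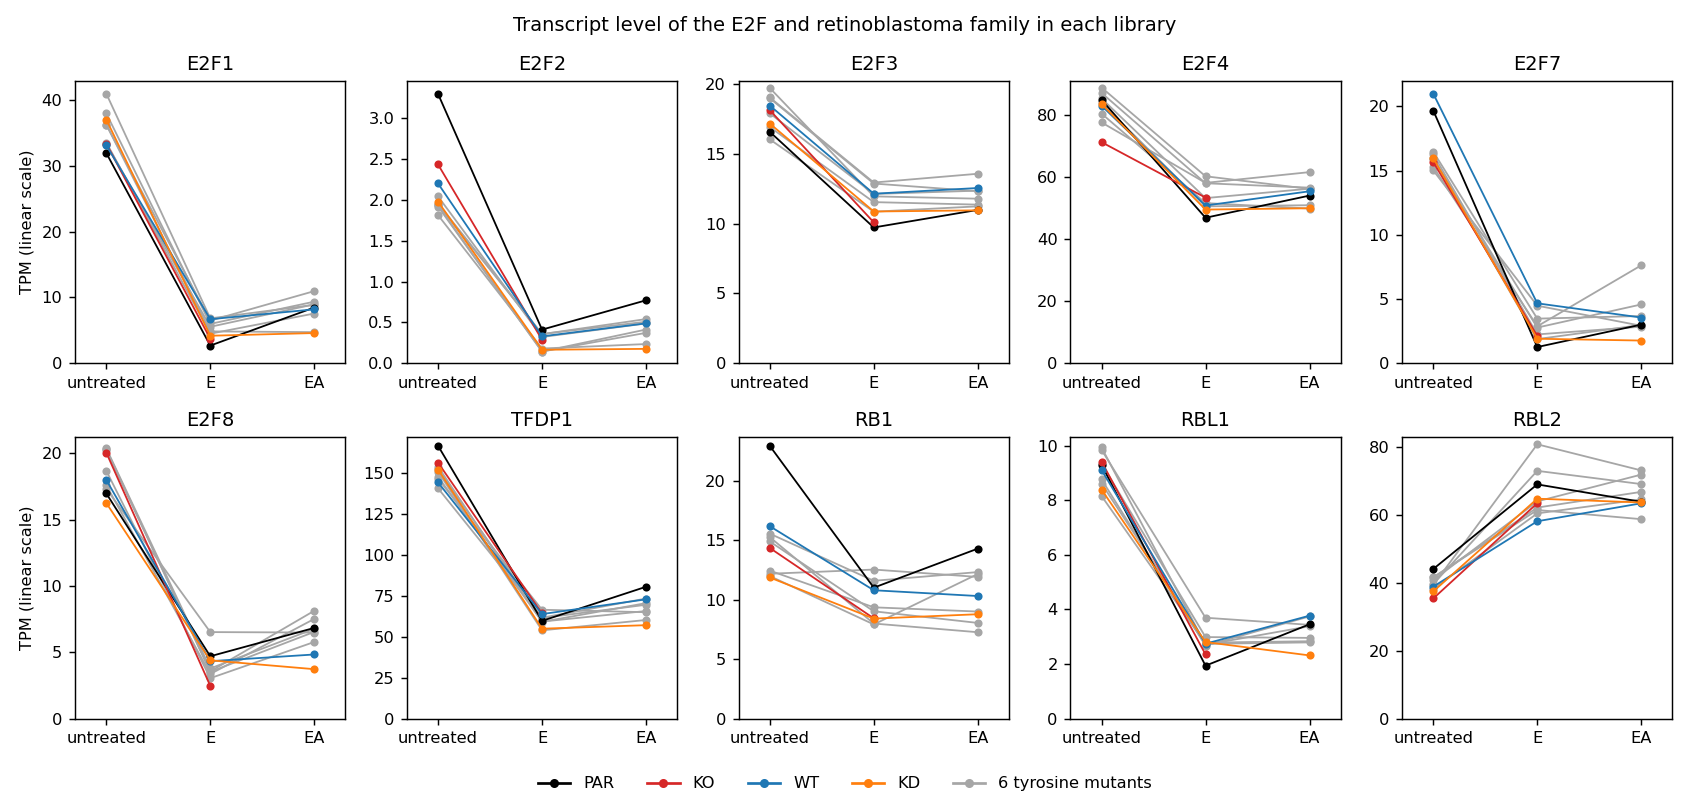
TPM (linear axes from 0, 1 scale per gene) of the 10 members, with 1 point per library and a line joining the treatments of each cell line. Every E point of E2F1, E2F2, E2F3, E2F4, E2F7, E2F8, TFDP1 and RBL1 lies below every untreated point, every E point of RBL2 lies above, and RB1 overlaps.

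Erlotinib lowered 8 of the 9 members tested and raised RBL2. All 9 passed a Benjamini-Hochberg adjusted p under 0.05 in limma, fitted over all genes on log2(TPM + 1) with the cell line as a block. This threshold was also passed by 71.8% of the 14104 genes tested, 36.3% of them lower and 35.5% higher with E, so passing it does not set the members apart. In 7 of the 9, every library with E lay below every untreated library, against 17.2% of all genes, and RBL2 was separated in the other direction, against 12.7%. The median change over all genes was 0.01. In RNA of whole dishes, fewer cells that carry a transcript and less of it in each cell cannot be told apart.

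Among the activators, E2F1 (ENSG00000101412, chromosome 20 from 33675683 to 33686404 in GENCODE release 29 on GRCh38), which drives entry into S phase, had the largest change on the log2(TPM + 1) scale. Untreated it was 32.0 TPM at the lowest (PAR), 34.9 at the median and 41.0 at the highest (Y634F), and with E it was 2.66 (PAR), 5.17 and 6.80 TPM (Y634F). The groups were far apart, and the line that was lowest or highest untreated was also lowest or highest with E. The change was -2.61 on the log2(TPM + 1) scale (SE 0.09, 95% interval -2.80 to -2.41, adjusted p = 1.9e-11, lower in 10 of 10 lines), and the ratio of TPM was 7.16-fold lower on average, from 4.97-fold in WT to 12.02-fold in PAR. E2F1 had the 29th largest fall among the 14104 genes.

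E2F2 (ENSG00000007968, chromosome 1 from 23506430 to 23531220), another activator, was low throughout. Its untreated values had a lowest of 1.81 TPM (Y821F), a median of 1.97 and a highest of 3.30 TPM (PAR), and with E they were 0.141 (Y726F), 0.303 and 0.410 TPM (PAR). The values with E were all below the lowest untreated one, and PAR stood highest in both. Without the filter on low values its change was -1.31 (SE 0.05, adjusted p = 8.22e-09, lower in 10 of 10 lines), a scale that understates changes at this level. The ratio of TPM was 8.53-fold lower on average, from 5.47-fold in Y634F to 13.7-fold in Y750F, a range that overlaps that of E2F1.

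E2F3 (ENSG00000112242, chromosome 6 from 20401906 to 20493715), the third activator, fell less. It was 16.1 (Y634F), 18.04 and 19.7 TPM (Y750F) at the lowest, median and highest untreated, and 9.73 (PAR), 11.8 and 12.96 TPM (Y643F) with E. The groups did not overlap. The change was -0.60 (SE 0.05, adjusted p = 4.59e-08, lower in 10 of 10 lines).

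The fall of E2F3 lay in 1 of its 2 main transcripts. E2F3-201 (ENST00000346618, from 20402167), which encodes the E2F3a form, and E2F3-202 (ENST00000535432, from 20403679), which encodes E2F3b, start 1512 bases apart and share 4271 exonic bases. Only 478 bases of E2F3-201 and 154 bases of E2F3-202 are their own, so the division of reads between them by the authors' quantification rests on few bases. The first start printed above lies 288 bases before E2F3-201 and the internal one 65 bases before E2F3-202.

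E2F3-201 was 9.79 TPM at the lowest, 11.96 at the median and 13.5 at the highest untreated, and 3.14, 3.92 and 5.01 TPM with E. E2F3-202 was 3.51, 6.17 and 8.34 TPM untreated and 6.29, 7.45 and 8.72 TPM with E. Thus E2F3-201 was separated between the groups in every line, and the ranges of E2F3-202 overlapped. In a limma fit over 47913 single transcripts, added after the data had been seen, E2F3-201 changed by -1.32 (SE 0.08, adjusted p = 3.43e-08, lower in 10 of 10 lines), whereas the change of E2F3-202 was 0.23 (SE 0.09, adjusted p = 0.0661, higher in 8 of 10 lines). The share of E2F3-201 in the TPM of the gene went from 65.1 ± 6.80% to 35.3 ± 3.93% (SD, n = 10 lines), a difference of -29.8 percentage points that was negative in each of the 10 (exact permutation test by two-sided sign flips, p = 0.00195, the smallest possible with 10 lines). With EA the share was 37.7 ± 8.02% in the 8 lines compared below, against 35.0 ± 4.35% with E in the same lines, and it was higher in 4 of them and lower in 4 (exact p = 0.453).

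**Figure D2:**
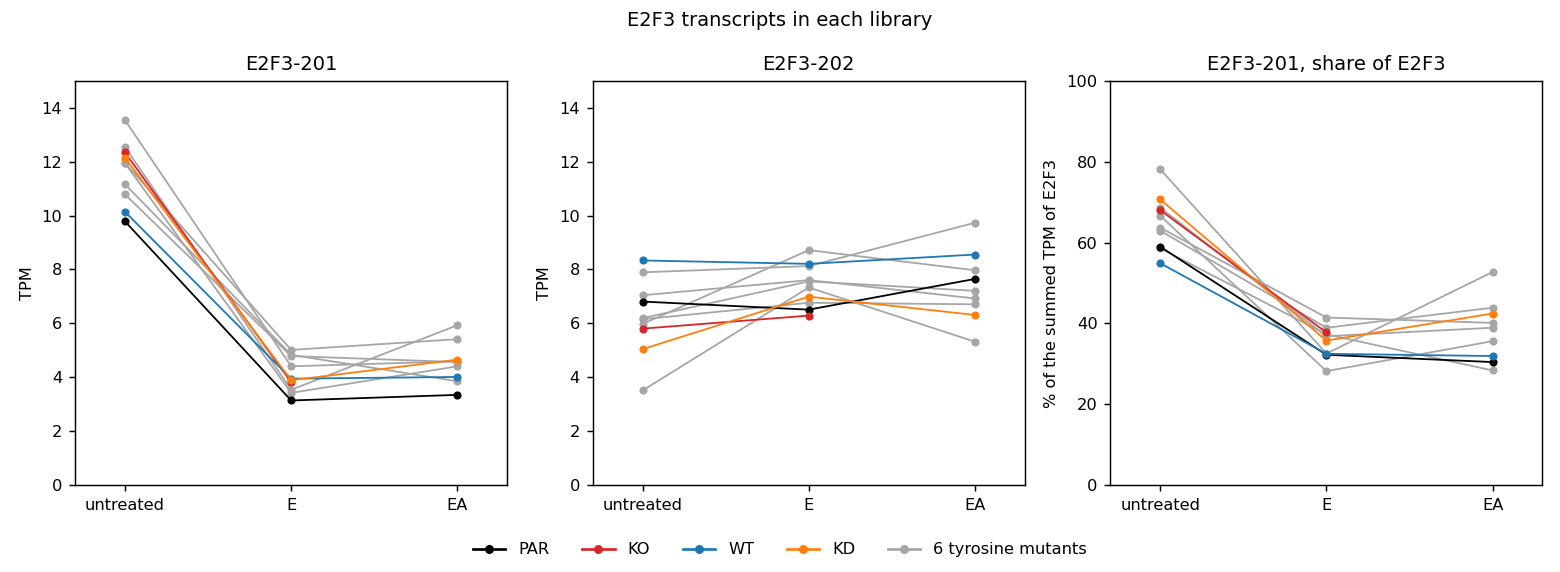
TPM of E2F3-201 and of E2F3-202, and the share of E2F3-201 in the summed TPM of E2F3 (%), with 1 point per library and a line joining the treatments of each cell line. The share lies between 54.9 and 78.2% untreated and between 28.2 and 41.4% with E, while the points of E2F3-202 overlap between treatments.

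E2F4 (ENSG00000205250, chromosome 16 from 67192169 to 67198918), the most abundant E2F and the usual partner of RBL1 and RBL2, was 71.3 (KO), 83.9 and 88.9 TPM (Y821F) untreated and 46.9 (PAR), 52.5 and 60.3 TPM (Y821F) with E. All values with E were below the lowest untreated one. Its change was -0.63 (SE 0.04, adjusted p = 2e-08, lower in 10 of 10 lines), smallest in KO and Y634F (-0.41 in both). The median ratio of E2F4 to E2F1 within a library was 2.38 untreated and 10.5 with E.

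Both atypical repressors fell strongly. E2F7 (ENSG00000165891, chromosome 12 from 77021247 to 77065580) was 15.01 (Y726F), 15.96 and 21.0 TPM (WT) untreated and 1.25 (PAR), 2.50 and 4.66 TPM (WT) with E. E2F8 (ENSG00000129173, chromosome 11 from 19224063 to 19241620) was 16.3 (KD), 18.3 and 20.4 TPM (Y750F) untreated and 2.47 (KO), 3.67 and 6.52 TPM (Y634F) with E. Neither gene overlapped between the groups, and both varied several-fold among lines with E. The change was -2.29 for E2F7 (SE 0.13, adjusted p = 1.94e-09) and -2.004 for E2F8 (SE 0.11, adjusted p = 1.73e-09), and both were lower in 10 of 10 lines. The fall in E2F7 ranged from 3.36-fold in Y726F to 15.8-fold in PAR. Exons of E2F8 overlap a gene on the opposite strand, and since the strand handling of the quantification is not given in the sources used here, its level is uncertain to that extent.

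TFDP1 (ENSG00000198176, chromosome 13 from 113584721 to 113641470), which makes the DNA-binding dimer with E2F1 to E2F4, was 140 (Y698F), 151 and 166 TPM (PAR) untreated and 53.8 (Y750F), 60.5 and 66.4 TPM (Y634F) with E. The groups were far apart and the spread among lines was small. The change was -1.31 (SE 0.04, adjusted p = 6.41e-12, lower in 10 of 10 lines), a 2.50-fold lower TPM that ranged from 2.20-fold to 2.80-fold.

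The pocket proteins moved in different directions. RB1 (ENSG00000139687, chromosome 13 from 48303726 to 48599436), the retinoblastoma protein itself, was 11.9 (KD), 14.6 and 23.0 TPM (PAR) untreated and 7.93 (Y821F), 9.20 and 12.5 TPM (Y634F) with E. These groups overlapped: PAR stood alone at the top untreated, and in Y634F the values were nearly equal, at 12.2 TPM untreated and 12.5 TPM with E. Its change was -0.55 (SE 0.09, adjusted p = 5.84e-05, lower in 9 of 10 lines), and without PAR it was -0.50 (adjusted p = 0.000116). The overlap held for the summed gene and not for its protein-coding transcript RB1-201. That transcript was 10.02 to 18.6 TPM untreated and 6.28 to 9.84 TPM with E. In the limma fit over single transcripts it changed by -0.56 (adjusted p = 1.46e-05) and was lower in 10 of 10 lines, Y634F included.

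RBL1 (ENSG00000080839, chromosome 20 from 36996349 to 37095995), the pocket protein of cycling cells, was 8.16 (Y750F), 9.21 and 9.94 TPM (Y698F) untreated and 1.94 (PAR), 2.74 and 3.70 TPM (Y643F) with E. Its groups did not overlap. The change was -1.44 (SE 0.07, adjusted p = 6.52e-10, lower in 10 of 10 lines), or 3.35-fold lower TPM. An antisense gene overlaps its exons, with the same uncertainty as for E2F8.

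RBL2 (ENSG00000103479, chromosome 16 from 53433977 to 53491649), the pocket protein that prevails in resting cells, was the one member that rose. It was 35.4 (KO), 39.5 and 44.1 TPM (PAR) untreated and 58.2 (WT), 63.8 and 80.9 TPM (Y643F) with E, so every treated library exceeded every untreated one. The change was 0.71 (SE 0.05, adjusted p = 1.38e-08, higher in 10 of 10 lines), a 1.65-fold higher TPM. Within a library the median ratio of RBL2 to RBL1 was 4.37 untreated and 23.2 with E.

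The rise of RBL2 was shared by its main transcripts. Its full-length protein-coding transcript RBL2-201 was 19.9, 23.2 and 26.2 TPM untreated and 32.1, 33.5 and 43.0 TPM with E, a change of 0.56 (SE 0.04, adjusted p = 6.46e-07). The short retained-intron transcripts RBL2-205 and RBL2-206 changed by 0.98 and 0.69 (adjusted p = 9.25e-05 and 1.54e-05), and each of the 3 was higher in 10 of 10 lines. AKTIP on the opposite strand overlaps RBL2 and was 21.2 to 28.3 TPM untreated and 20.4 to 29.4 TPM with E, so its own level overlapped between the groups. Of the 27 transcripts of members with a mean of at least 1 TPM, 17 were lower and 4 higher with E at an adjusted p under 0.05, beside 44.7% of all transcripts past the threshold in either direction. The fourth that was higher was E2F4-208, a retained-intron transcript at 1.12 TPM untreated and 1.71 TPM with E.

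**Figure D3:**
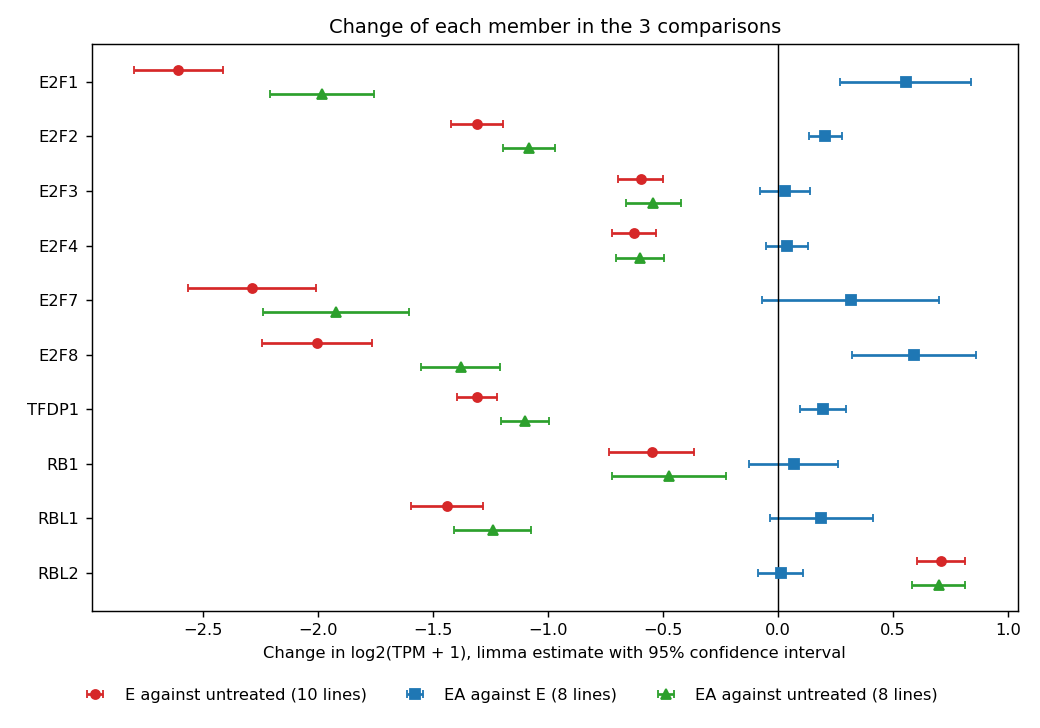
Change in log2(TPM + 1) for each member, as the limma estimate with its 95% confidence interval, for E against untreated (10 lines), EA against E (8 lines) and EA against untreated (8 lines). E2F2 is from the fit without a filter on low values. Changes with E run from -2.61 for E2F1 to 0.71 for RBL2, and those between EA and E from 0.01 for RBL2 to 0.59 for E2F8.

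Addition of AF154 to erlotinib was examined in the 8 lines with a kinase-competent receptor, leaving out KO and KD. In the transduced lines among them, each value averages over cells with the receptor and a majority without it. With EA none of the 9 members passed the adjusted threshold in limma, which 0.475% of the 14104 genes (67) passed. At an unadjusted p under 0.05 there were 3 of the 9, E2F1, E2F8 and TFDP1, and 2381 of all genes. The 3 were higher with EA. No other tool was run for this comparison.

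E2F1 in these 8 lines was 2.66 (PAR), 5.74 and 6.80 TPM (Y634F) with E and 4.70 (Y821F), 8.66 and 10.9 TPM (Y698F) with EA. The ranges overlapped, yet the value was higher with EA in 7 of 8 lines. PAR moved most, from 2.66 to 8.45 TPM, and in Y821F the values were 4.82 and 4.70 TPM. The mean difference was 0.56 on the log2 scale (SE 0.13, 95% interval 0.27 to 0.84, adjusted p = 0.0771), without PAR it was 0.44 (adjusted p = 0.128) and without Y821F 0.64 (adjusted p = 0.0784). Over the alternatives the adjusted p ran from 0.0475 to 0.249. It was under 0.05 with a mean of at least 10 TPM (0.0475) and with protein-coding transcripts only (0.0481).

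E2F8 showed a difference of similar size. It was 3.05 (Y821F), 3.67 and 6.52 TPM (Y634F) with E and 4.84 (WT), 6.66 and 8.13 TPM (Y643F) with EA. It was higher in 7 of 8 lines and level in Y634F, which had the highest value with E. The difference was 0.59 (SE 0.12, 95% interval 0.32 to 0.86, adjusted p = 0.0633), and 0.61 without PAR (adjusted p = 0.127).

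For TFDP1 the values were 53.8 (Y750F), 60.5 and 66.4 TPM (Y634F) with E and 60.2 (Y750F), 69.9 and 80.4 TPM (PAR) with EA. The difference was 0.19 (SE 0.05, 95% interval 0.09 to 0.30, adjusted p = 0.0786), higher in 7 of 8 lines. Counting protein-coding transcripts alone it was 0.26 and passed (adjusted p = 0.0167), within a range of adjusted p from 0.0167 to 0.266 over the alternatives.

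E2F2 was 0.141, 0.324 and 0.410 TPM with E and 0.233, 0.486 and 0.770 TPM with EA in the 8 lines, and was higher in 8 of 8. The difference in the fit without a filter was 0.20 (SE 0.03, adjusted p = 0.086). E2F7 differed by 0.32 (95% interval -0.07 to 0.70, adjusted p = 0.388) and RBL1 by 0.19 (-0.03 to 0.41, adjusted p = 0.374), each higher in 6 of 8 lines. E2F7 was the member that varied most between lines here, from a fall of 0.49 in Y726F to a rise of 1.16 in Y698F.

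RB1, E2F4, E2F3 and RBL2 showed little difference between EA and E. Their estimates were 0.07 (95% interval -0.12 to 0.26), 0.04 (-0.05 to 0.13), 0.03 (-0.08 to 0.14) and 0.01 (-0.09 to 0.11), with adjusted p of 0.741, 0.673, 0.802 and 0.927. RBL2, the member that rose with E, was 58.2, 63.1 and 80.9 TPM with E and 58.8, 65.7 and 73.1 TPM with EA in the 8 lines, and was higher in 4 and lower in 4.

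In the kinase-dead line KD, the values with E and EA were 4.16 and 4.57 TPM for E2F1, 4.39 and 3.73 TPM for E2F8, 54.8 and 57.0 TPM for TFDP1 and 0.163 and 0.174 TPM for E2F2. These log2 differences of 0.11, -0.19, 0.05 and 0.01 rest on 1 pair of libraries and have no replicate error. The difference from the 8 lines was not tested.

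Between EA and untreated, all 9 members passed the threshold in the 8 lines, 8 lower and 1 higher, beside 62.7% of the 14104 genes, 31.6% lower and 31.1% higher. This comparison uses the same untreated and EA libraries as those above, so it is not independent of them. The log2 changes were -1.98 for E2F1 (4.33-fold lower TPM), -1.92 for E2F7, -1.38 for E2F8, -1.24 for RBL1, -1.10 for TFDP1, -0.60 for E2F4, -0.54 for E2F3, -0.47 for RB1 and 0.70 for RBL2, with the highest adjusted p for RB1 at 0.00335. The RB1 groups overlapped: in Y634F its values were 12.2 TPM untreated and 11.9 TPM with EA, and in Y821F it was slightly higher with EA than untreated. The share of all genes without overlap is not given for this comparison, so separation of the other members is not counted here. E2F2 changed by -1.08 in the fit without a filter. Expressed as the part of the erlotinib fall in TPM that was undone with EA, the median over 8 lines was 10.6% for E2F1 (from -0.361% in Y821F to 19.8% in PAR), 17.7% for E2F8, 10.04% for TFDP1, 6.07% for E2F7 and 5.19% for RBL1. Over the 8 lines this part ran from -0.295 to 29.2% for E2F8 and from -1.88 to 19.5% for TFDP1. The range was -14.9 to 38.3% for E2F7 and -4.24 to 20.6% for RBL1. In KD the part undone was 1.25% for E2F1 and -5.63% for E2F8.

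The neighbours of the family in the pathway were followed with 4 gene lists that exclude the members. Of 12 E2F partners and DREAM components, 10 were lower and 2 higher with E, beside 36.3% lower and 35.5% higher among all genes, with a median change of -0.77 beside 0.01 over all genes. MYBL2, the B-MYB factor that takes over MuvB in cycling cells, changed most, from 135 ± 6.84 to 35.0 ± 5.63 TPM (log2 change -1.93, SE 0.07, adjusted p = 1.74e-11), and was followed by SKP2, which marks p27 for degradation (-1.37), and cyclin F, CCNF (-1.34). The 2 that rose were LIN37, a MuvB subunit needed for repression by DREAM (0.46, adjusted p = 0.00102), and TFDP2, the alternative DP partner (0.44, adjusted p = 3.42e-05). TFDP2 went from 40.4 ± 5.53 to 55.1 ± 7.71 TPM, so it moved opposite to TFDP1, whose means were 151 and 60.4 TPM.

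Of the cyclins and kinases, 11 of 11 tested genes were lower with E, beside 36.3% of all genes, with a median of -1.05. CDC25A, the phosphatase that activates CDK2, changed most (-2.61, from 21.6 ± 1.80 to 2.85 ± 1.15 TPM), and then the G1/S cyclins CCNE2 (-2.08) and CCNE1 (-1.96). CCND1 and CDK4, which phosphorylate RB1, changed by -0.73 each, CCND3 by -1.05 and CDK6 by -0.36. CCND2 was close to 0 TPM in all groups and was not tested.

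Of 7 CDK inhibitors, 4 were higher and 3 lower with E, a mixed split like that of all genes (35.5% higher and 36.3% lower). CDKN2B (p15), which blocks CDK4 and CDK6, rose most of them, from 14.0 ± 2.17 to 151 ± 18.1 TPM (3.34, SE 0.06, adjusted p = 2.56e-13). CDKN1C (p57), CDKN1B (p27) and CDKN2A, which encodes p16 and ARF, rose by 1.15, 0.75 and 0.71. The falls were in CDKN2C (p18, -0.80), CDKN1A (p21, -0.43) and CDKN2D (p19, -0.38).

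All 40 G1/S genes of the list, which are known E2F targets in DNA replication and nucleotide supply, were lower with E, beside 36.3% of all genes, with a median of -1.83 and a range from -2.90 to -0.84. The 3 largest falls were in the replication licensing factors CDC6 (-2.90, from 55.0 ± 3.79 to 6.71 ± 2.003 TPM), MCM10 (-2.75) and MCM6 (-2.69).

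Between EA and E the lists moved less. Of the 40 G1/S genes 4 were higher at an adjusted p under 0.05 and none lower, beside 0.475% of all genes in either direction, and 39 of 40 estimates were above 0, with a median of 0.34 beside 0.01 over all genes. The 3 largest rises that passed were CDC6 (0.67, adjusted p = 0.0408), TYMS, the thymidylate synthase (0.59, adjusted p = 0.0469), and ATAD2 (0.45, adjusted p = 0.0334). Of the 11 cyclins and kinases 3 passed, CDK1 (0.38, adjusted p = 0.0156), CCNA2 (0.33, adjusted p = 0.0231) and CCNB1 (0.25, adjusted p = 0.0359), whereas CCNE2, with the largest estimate of the list, did not (0.47, SE 0.16, adjusted p = 0.189). The others that did not pass were CDC25A (0.26), CDK2 (0.19), CCND3 (0.17), CDK6 (0.09), CCNE1 (0.09), CCND1 (-0.01) and CDK4 (-0.04). MYBL2 (0.42, adjusted p = 0.0418) was the 1 of 12 genes of the first list that passed, and 0 of 7 CDK inhibitors did, with 1 of the 7, CDKN2B (-0.26, adjusted p = 0.0727), at an unadjusted p under 0.05. These calls depended on single lines: without Y634F the counts were 0 of 40 and 0 of 11, and without PAR they were 3 and 3. They were also 0 of 40 without Y643F, Y698F, Y750F or Y821F, and 17 with a mean of at least 10 TPM, where 214 of all 9085 genes passed. The call of MYBL2 was lost when any line other than WT was left out, and with centred medians, no filter, no block or the KD pair included.

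**Figure D4:**
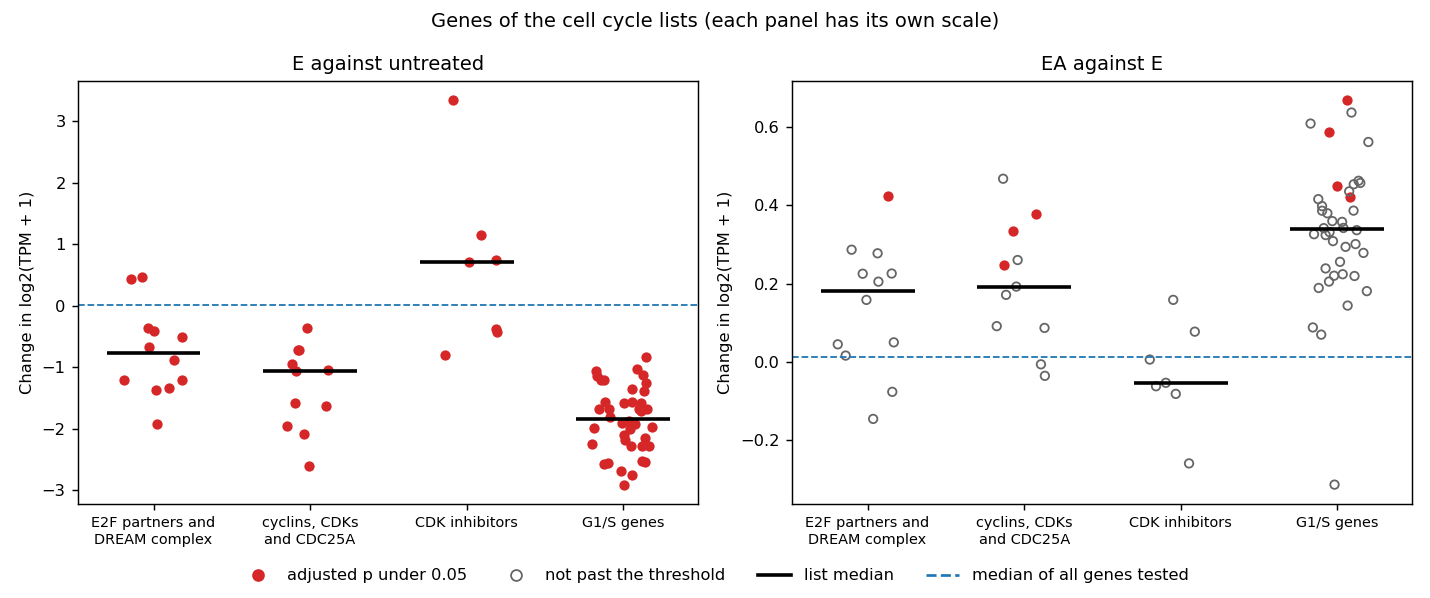
Change in log2(TPM + 1) for each tested gene of the 4 lists, with E against untreated on the left and EA against E on the right, on separate scales. Filled points passed an adjusted p under 0.05, bars are list medians and the dashed line is the median of all genes tested. All 40 G1/S genes lie below 0 with E, and 39 of 40 lie above 0 between EA and E.

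Genes with the most similar pattern were sought among those with a mean of at least 10 TPM, as a description over 29 libraries that share 3 treatments. The 5 with the highest Pearson correlation to E2F1 on the log2 scale were GINS2 (0.99), PCNA (0.99), CLSPN (0.99), MCM6 (0.99) and CDCA7 (0.99). PCNA, for example, had means of 328, 74.0 and 96.8 TPM in untreated, E and EA libraries. For RBL2 they were RHBDF1 (0.97), DYSF (0.97), KLF8 (0.97), BMPR2 (0.97) and YPEL5 (0.97), and YPEL5 had means of 23.5, 86.2 and 86.2 TPM.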

How the data were processed

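RNA of 10 PC9 lines was measured untreated and after 24 h with E or EA, in 29 libraries. The deposited values are TPM for each transcript, as computed by the authors. The submitters' processing notes name kallisto and GRCh38, and versions, annotation and strand handling are not given in the sources used here. TPM keeps no depth, so counting error is unknown, and the error of a change here is its variation among lines. Number of library rows not mapped to a sample: 0.

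By identifier, 169754 of 188753 transcripts were found in GENCODE release 29, and their TPM was summed to 35544 genes. Genes averaging 1 TPM or more were tested on log2(TPM + 1), a scale that understates the change of low genes, with limma 3.58.1 in R 4.3.3 (lmFit, eBayes with a trend). Cell line was the blocking factor, and p-values were adjusted over all genes by Benjamini-Hochberg (threshold 0.05). Cultures of 1 line are the same cells, which is where the pairing comes from. E was compared with untreated in 10 lines, and EA with E and with untreated in 8 lines. The block removes differences in level between lines, so the p-values rest on how much the change differed from line to line.

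The members, lists and comparisons were chosen with earlier results of these data known. All members were named, and per list up to 3 rises and 3 falls among genes past the threshold, every tested gene of the cyclin, kinase and CDK inhibitor lists being open to naming. Member transcripts with a mean of at least 1 TPM were described, and their limma fit and the sign-flip test of the E2F3-201 share were added after seeing the data. Promoter windows were from RefSeq tables for GRCh38.p14. Alternatives were a pseudocount of 0.1, a mean of at least 10 TPM, no filter, median-centred libraries, quantile normalization, no block, protein-coding transcripts only, the KD pair included and leaving out each line. The limma fit of E against untreated was tested on simulated data. Tables and figures were made with Python 3.11.15, pandas 2.3.3, numpy 2.4.6 and matplotlib 3.10.9.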

Additional observations from a re-analysis of the deposited data

Results flagged for a closer look

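Of 50 groups of values examined for a library far from the others (the levels of each member per treatment, and its change per line with E and with AF154), 3 had one, where chance flags about 1 in 20 groups, or 2.5 of 50. Untreated PAR had the highest RB1 level, at 23.0 TPM, while the other 9 untreated lines lay between 11.9 and 16.2 TPM. Untreated PAR was also highest for E2F2, at 3.30 TPM against 1.81 to 2.44 TPM in the others. With EA, Y698F had 7.62 TPM of E2F7, and the other 8 lines lay between 1.75 and 4.57 TPM.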

How the results depend on the processing

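With E against untreated, and with EA against untreated, every member kept its direction and stayed past the threshold under each alternative in which it was tested (150 and 141 fits). The count of members called lower was 5 in both comparisons with a mean of at least 10 TPM, since only 6 members meet that filter. Between EA and E the number of genes past the threshold, 67, was unstable: 214 with a mean of at least 10 TPM, 258 with protein-coding transcripts only, 6 with no filter, 32 with centred medians, 27 with the KD pair, 3 without the block, and 0 (without Y634F) to 38 (without WT) when a line was left out. It was 34 without PAR, 20 without Y726F, 6 without Y643F, Y698F or Y750F and 5 without Y821F. Members called higher numbered 1 (E2F1) with the higher filter and 2 (E2F1 and TFDP1) with protein-coding transcripts. The small RBL2 difference turned negative with centred medians (-0.0117) and quantile normalization (-0.0006), and ran from -0.0107 to 0.0333 when a line was left out, below 0 without WT, Y634F, Y698F or Y750F. That of RB1 ran from -0.0027 to 0.0986, below 0 without Y821F. The cause of these shifts was not tested. With a single library per line and treatment, effects within 1 line could not be tested, and with TPM alone no depth limit can be set for low members such as E2F2.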
